A study of Mus musculus with 12 samples.

Results

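Thiacloprid (*thia*) is a neonicotinoid insecticide, and the question addressed here was whether the embryonic testis responded to it differently in the directly exposed generation (F1) and in the third generation (F3), which was never exposed. For each gene, the log2 change from control to *thia* was taken in F1 and in F3, and the quantity compared was the F3 change minus the F1 change, called the difference below. A positive difference means that *thia* against control lay higher in F3 than in F1, and a negative one that it lay lower. All 12 libraries of the series entered 1 model of raw counts with 4 group means.

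The animals were outbred Swiss (RjOrl) mice, and the tissue was testis of male embryos at E15.5. Pregnant F0 females received *thia* suspended in olive oil at 6 mg/kg/day, or the oil alone, by gavage from E6.5 to E15.5. The F1 embryos were dissected at the end of that treatment and had been exposed in the womb. The F3 embryos descended from F1 and F2 males that were mated to untreated females of other families, in the *thia* line and in the control line alike. Each group held 3 libraries, F1 control, F1 *thia*, F3 control and F3 *thia*, and each library was made from the testes of 3 pooled embryos. The labels do not tie a pool to a litter or to a round of breeding and name no batch, so p-values measure the spread between pools. The level of a gene in F1 and in F3 cannot be told apart from anything else in which the 2 generations were handled differently, whereas the difference sets *thia* against the controls of the same generation. In whole tissue, fewer cells of a type and less RNA per cell cannot be told apart.

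At this age the fetal testis holds germ cells that are entering mitotic arrest inside cords of Sertoli cells. Between the cords lie fetal Leydig cells, which make androgens from cholesterol, together with interstitial progenitors that respond to Hedgehog signals, smooth muscle-like cells, vessels and macrophages. Androgen synthesis starts with the uptake or synthesis of cholesterol, goes on with its transfer into mitochondria by Star, and continues through cytochrome P450 enzymes such as Cyp11a1 and Cyp17a1. Neonicotinoids act on nicotinic acetylcholine receptors, the ion channels through which they kill insects.

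Total counts per library ran from 25081647 to 68996146, with a median of 42665445. The defining markers of germ cells, Sertoli cells and Leydig cells were read in every library. Markers of neighbouring tissues were read in every library too, and a pair of pools stood apart: 48 skeletal muscle genes summed to 1390 CPM (counts scaled to the library total and by TMM) in F1 *thia* 2 and to 349 to 814 CPM in the other 11 pools, and 25 erythroid genes were highest in F3 *thia* 2. The erythroid genes also differed between generations, with sums of 46370 to 86230 CPM in the F3 pools and 5580 to 19740 CPM in the F1 pools. Replicates differed by far more than counting noise, with a chi-square per degree of freedom of 17.3 to 101 between pools of a group, and of 90.7 and 101 in both pairs of F3 *thia* that held F3 *thia* 2.

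Of 19626 genes tested, only the RNA of Gas5 passed the quasi-likelihood test of edgeR for the difference at an FDR of 0.1, which is 0.0051% of genes. An unadjusted p under 0.05 was reached by 2755 genes (14%), of which 1557 (7.93%) had a positive and 1198 (6.1%) a negative difference. DESeq2 (Wald test), with which the study was analysed, called 724 of the 12770 genes it adjusted (5.67%), 430 with a positive difference (3.37%) and 294 with a negative one (2.3%). The count of DESeq2 was 78 without F3 control 1, 101 without F3 *thia* 3, 184 without F1 *thia* 3, 223 without F1 *thia* 1, 377 without F1 control 3, 384 without F1 control 2 and 1257 without F3 *thia* 2. The counts of both tools lay far apart, so apart from Gas5 the genes below are given by their values and by what each tool made of them. The split between directions rested on the scaling, with 985 positive and 1902 negative genes at an unadjusted p under 0.05 under upper quartile scaling.

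Most of the genes with a difference had their change in F3. Among the 2755 genes, 1843 (66.9%) had an F3 change at an unadjusted p under 0.05 and no such F1 change, 444 (16.1%) an F1 change alone, 73 (2.65%) changes of opposite sign in both generations, 4 changes of the same sign, and 391 (14.2%) neither. Among the 724 genes of DESeq2, 623 (86%) belonged to F3 alone, 52 (7.18%) were opposite and 46 (6.35%) belonged to F1 alone. For reference, 4313 of all genes tested (22%) had an F3 change at an unadjusted p under 0.05, and 1789 (9.12%) an F1 change. The classes sort genes by the 2 changes that make up the difference, so these shares go into them. The same fit called 1936 genes (9.86%) for the F3 change at an FDR of 0.1. It called 0 genes for the F1 change at an FDR of 0.15. DESeq2 called 92 genes in F1. The F3 count leans on the pooled spread and on single pools. A fit of the 6 F3 libraries alone called 0 genes by edgeR, with a smallest adjusted p of 0.101 and 3906 genes at an unadjusted p under 0.05, and the 12-library count was also 0 without F3 control 1 or without F3 *thia* 3. Where a gene is said below to have risen or fallen in F3, the call is that of the 12-library fit.

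**Figure D1:**
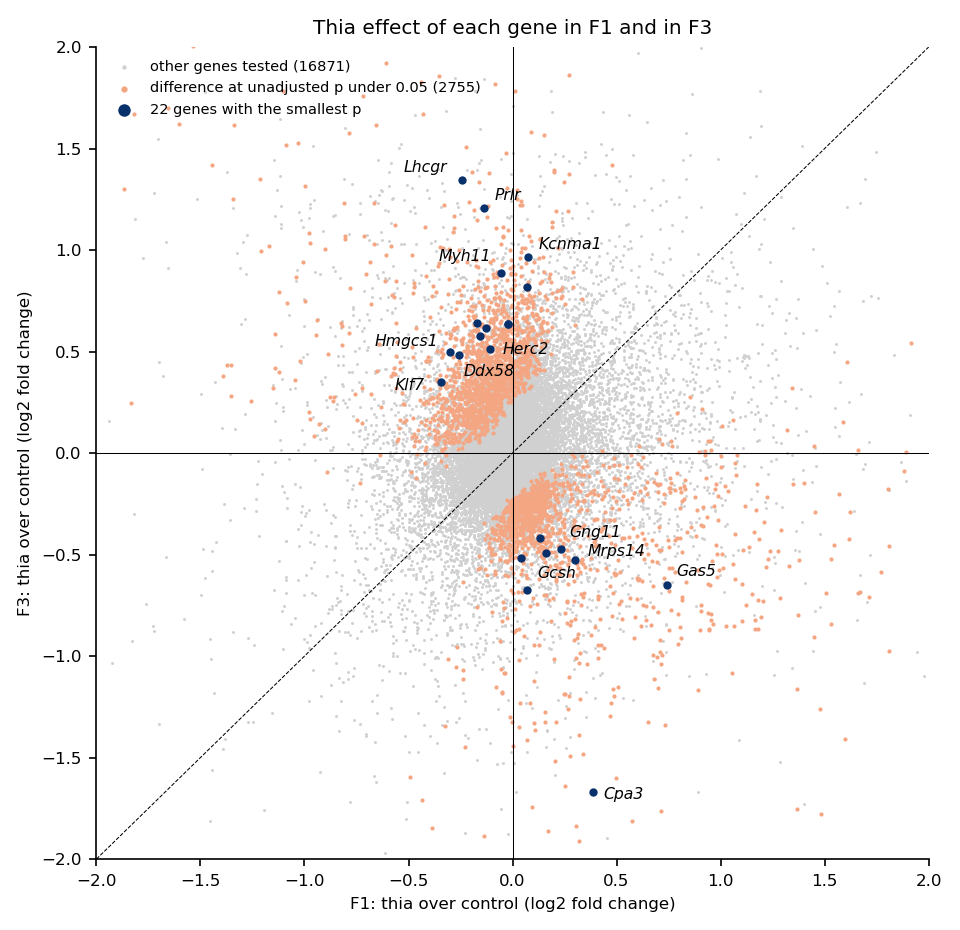
Each point is a gene, with the log2 fold change of *thia* over control in F1 on the horizontal axis and in F3 on the vertical axis; 91 genes lie outside the plotted range of 2 in either direction. Orange points are the 2755 genes with a difference at an unadjusted p under 0.05, which lie away from the dashed line of equal effects, and the 22 genes with the smallest p are dark blue, with Gas5 at 0.74 in F1 and -0.65 in F3.

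Gas5 (chr1:161034422-161038539, mm10) is a long non-coding RNA whose introns carry small nucleolar RNAs that guide the modification of ribosomal RNA, and its spliced transcript is known to accumulate in growth-arrested cells. In F1 it stood at 55.0, 54.5 and 54.9 CPM in the controls and at 95.6, 87.6 and 92.3 CPM in the *thia* pools. In F3 it stood at 139, 125 and 158 CPM in the controls and at 99.6, 96.1 and 74.1 CPM in the *thia* pools. All *thia* pools therefore lay above the controls in F1 and below them in F3, with no overlap in either generation, and the 6 *thia* pools shared a range of 74.1 to 99.6 CPM. The log2 change was 0.74 in F1 and -0.65 in F3 (F3 adjusted p of 0.0299 by edgeR), and the difference was -1.39 (95% interval -1.74 to -1.05, adjusted p of 0.0193 by edgeR). The mean levels of the *thia* pools in F1 and F3 were 91.8 ± 4.02 and 89.9 ± 13.8 CPM (SD, n = 3 each), and those of the controls 54.8 ± 0.252 and 141 ± 16.5 CPM. The difference held its size, -1.48 to -1.27, in 23 alternative fits and passed in 16 of them. Its adjusted p rose above the threshold without F1 control 1 (0.111), F1 control 2 (0.122), F1 control 3 (0.129), F1 *thia* 1 (0.105) or F3 control 1 (0.111), and with a replicate block (0.383) or the block and the length trend removed (0.474).

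Among 18 small nucleolar RNA host genes Gas5 stood alone: 0 others passed by either tool, 2 others had a negative difference at an unadjusted p under 0.05 (Snhg18, -0.37, and Snhg8, -0.44), and the median difference of the group was 0.04. Because the direction of Gas5 turned between generations, a stretch of its promoter is shown beside that of Hmgcs1, the opposite gene of the cholesterol pathway described below. Both are read from RefSeq windows that run from 250 bases before to 50 bases after a transcript start, on build GRCm38.p6 and the plus strand. The capitals mark, in Gas5, the palindrome TGACGTCA, known as the cAMP response element, 46 bases before the second of 2 annotated starts, and in Hmgcs1 the run TCACCCCAC, which resembles a sterol regulatory element, 137 bases before the start.
Gas5, chr1:161035080-161035165: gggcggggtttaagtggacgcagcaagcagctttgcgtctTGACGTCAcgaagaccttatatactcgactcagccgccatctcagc
Hmgcs1, chr13:119690174-119690262: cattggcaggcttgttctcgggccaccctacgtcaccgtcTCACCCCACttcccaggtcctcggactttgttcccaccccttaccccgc
On either strand, TGACGTCA was found in 588 of 32851 such windows (1.79%) and TCACCCCAC in 181 (0.551%). Both motifs were chosen after the sequences were read, and a match of letters is a description and not a site.

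The 22 genes with the smallest p of the difference held 14 with a positive and 8 with a negative value. All 22 passed by DESeq2 (5.67% of the genes it adjusted) and all 22 were called for the F3 change by edgeR (9.86% of all genes). The 22 were picked by the difference in these same counts, and the F3 change is part of it. Both counts therefore follow largely from the choice. Apart from that of Gas5, their edgeR adjusted p for the difference ran from 0.164 to 0.248. In class, 16 belonged to F3 alone and 6 were opposite: Gas5, Mrps14, Gng11, Ddx58, Hmgcs1 and Klf7.

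Mrps14, a protein of the small subunit of the mitochondrial ribosome (chr1:160195215-160202170), followed the pattern of Gas5. Its levels were 44.7, 45.2 and 39.4 CPM in F1 controls against 51.0, 49.5 and 59.0 CPM in F1 *thia*, and 67.4, 63.6 and 63.7 CPM in F3 controls against 42.2, 49.6 and 43.4 CPM in F3 *thia*. The pools did not overlap in either generation, and the difference was -0.83 (SE 0.13, adjusted p of 0.213 by edgeR and 8.5e-05 by DESeq2). Gng11, a gamma subunit of heterotrimeric G proteins, had a difference of -0.71 (SE 0.14), with 57.7, 54.4 and 53.9 CPM in F3 controls and 41.0, 40.2 and 38.4 CPM in F3 *thia*. In F1 its pools overlapped, at 24.4 to 30.2 CPM in controls and 27.9 to 34.8 CPM in *thia*.

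Ddx58, Hmgcs1 and Klf7 turned the other way, lower with *thia* in F1 and higher in F3, again without overlap between pools. Ddx58 encodes RIG-I, a cytosolic sensor of viral RNA. It read 14.4, 14.7 and 17.2 CPM in F1 controls, 13.1, 12.3 and 13.3 CPM in F1 *thia*, 13.3, 11.7 and 11.6 CPM in F3 controls and 17.2, 17.4 and 16.6 CPM in F3 *thia*. The log2 change of Ddx58 was -0.26 in F1 and 0.48 in F3, and the difference 0.74 (SE 0.14, adjusted p of 0.248 by edgeR and 0.00182 by DESeq2). Klf7, a zinc finger transcription factor of the Krüppel-like family, had a change of -0.34 in F1 and 0.35 in F3. Its controls were far apart between generations, at 34.3 to 44.8 CPM in F1 and 18.9 to 20.2 CPM in F3, and its *thia* pools lay closer, at 28.9 to 32.2 and 23 to 26.7 CPM.

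**Figure D2:**
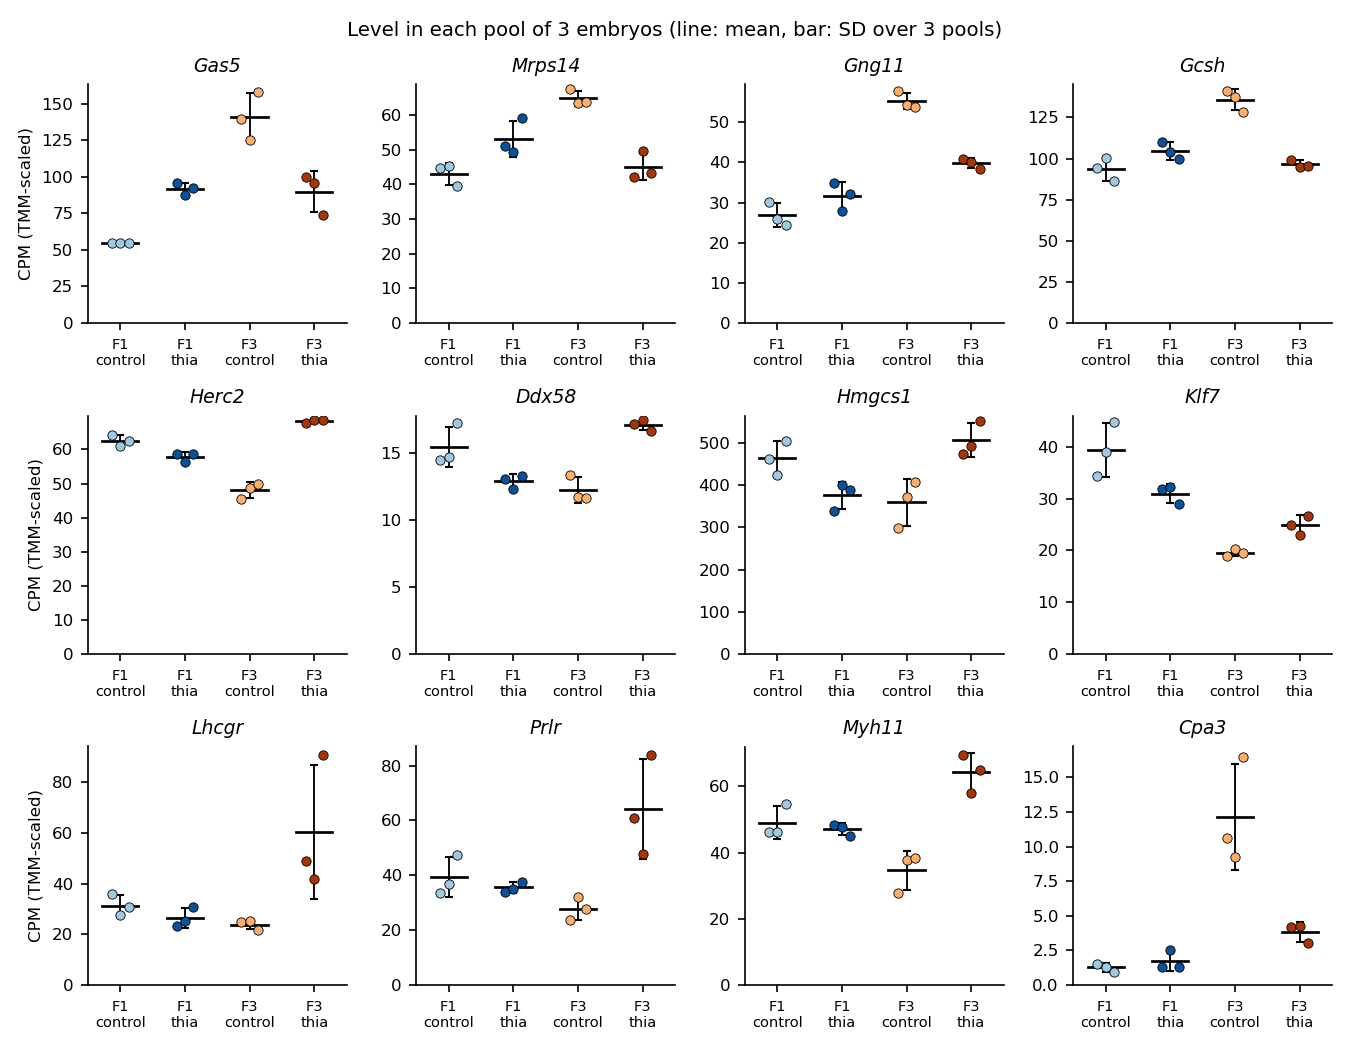
Each panel gives the TMM-scaled CPM of 1 gene on a linear axis from 0, with a point for each pool, a line at the group mean and a bar of 1 SD over 3 pools. Gas5, Mrps14 and Gng11 lay lower and Ddx58, Hmgcs1 and Klf7 higher with *thia* in F3, each with the opposite sign in F1, while Herc2, Lhcgr, Prlr and Myh11 lay higher in F3 *thia* only and Gcsh and Cpa3 lower.

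Over all genes, the *thia* and control pools failed to overlap in opposite directions in 210 genes (1.07%), 76 (0.387%) higher in F1 and lower in F3 and 134 (0.683%) the reverse, and in the same direction in 481 genes (2.45%). The 52 opposite genes of DESeq2 held 42 with a positive and 10 with a negative difference. Those with a positive difference included chromatin and ubiquitin factors, named here after their values were seen: Chd2, a chromatin remodeller (-0.23 in F1, 0.42 in F3), Dido1 (-0.21 and 0.35), Brd1, a subunit of histone acetyltransferase complexes (-0.19 and 0.24), Kat2b, a histone acetyltransferase (-0.35 and 0.26), and the ubiquitin ligases Herc1 (-0.30 and 0.33) and Ubr3 (-0.22 and 0.22). The fatty acid transporter Cd36 (-0.34 and 0.47) and Bmpr2, a receptor of bone morphogenetic proteins (-0.27 and 0.29), belonged to them too. The negative ones included Crabp1, a retinoic acid-binding protein, at 0.33 in F1 and -0.52 in F3, with 11.8 to 13.0, 13.8 to 16.8, 14.2 to 22 and 12.6 to 13.7 CPM in F1 control, F1 *thia*, F3 control and F3 *thia*. None of these 9 genes passed by edgeR. Exon lengths were 8404 to 27464 bases in Brd1, Ubr3, Dido1, Chd2, Bmpr2 and Herc1. They were 4867 in Kat2b, 3590 in Cd36 and 802 in Crabp1. The difference moved with exon length over all genes, as given below, and values of these 9 with that trend removed are not reported here.

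Genes of steroid synthesis and of cholesterol supply lay higher with *thia* in F3, and their median changes in F1 were near 0. Of 22 Leydig and steroidogenesis genes, 12 had a positive difference at an unadjusted p under 0.05 (54.5%, against 7.93% of all genes) and 1 a negative one, and DESeq2 called 7 and 0. Their median change was -0.04 in F1 and 0.56 in F3, with a median difference of 0.59, against medians of -0.00 and 0.01 and 0.02 over all genes. In F3, 9 of the 22 rose (5.87% of all genes did) and 1 fell.

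Among the Leydig genes the difference was largest in Lhcgr. Lhcgr, the receptor through which luteinising hormone drives Leydig cells (chr17:88716481-88791990), read 35.9, 27.4 and 30.6 CPM in F1 controls, 23.2, 25.3 and 30.9 CPM in F1 *thia*, 24.7, 25.2 and 21.6 CPM in F3 controls and 48.8, 41.9 and 90.6 CPM in F3 *thia*. F3 *thia* 3 was the highest pool and the other 2 still lay above every other pool. Lhcgr rose in F3 by 1.34 (adjusted p of 0.0308 by edgeR) with -0.24 in F1, and its difference was 1.59 (95% interval 0.87 to 2.30, adjusted p of 0.248 by edgeR and 0.00182 by DESeq2). Prlr, the prolactin receptor, rose in F3 by 1.21 (adjusted p of 0.0218 by edgeR), from 23.8, 32.1 and 27.6 CPM to 61.0, 47.7 and 83.9 CPM. In F1 Prlr read 33.6 to 47.5 CPM in controls and 34.0 to 37.7 CPM in *thia*, and its difference was 1.35 (SE 0.26), which edgeR called without F3 *thia* 2 (adjusted p of 0.0956).

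Downstream of the receptors, Scarb1, which takes up cholesterol from high-density lipoprotein, had a difference of 1.29 (SE 0.33, adjusted p of 0.0156 by DESeq2). Its F3 *thia* pools read 939, 869 and 1526 CPM against 372, 619 and 498 CPM in F3 controls, and 407, 536 and 619 CPM against 651, 571 and 481 CPM in F1. Star differed by 1.37 (SE 0.39), with 612, 449 and 883 CPM in F3 *thia* against 204, 362 and 349 CPM in F3 controls, and 240, 310 and 448 CPM in F1 *thia* against 472, 377 and 367 CPM in F1 controls. Cyp17a1, which converts progestins into androgen precursors, differed by 1.11 (SE 0.37), with 2782, 1978 and 3630 CPM in F3 *thia* against 882, 1688 and 1436 CPM in F3 controls and overlapping pools in F1. In all 3 genes the F3 groups did not overlap (26.6% of all genes), F3 *thia* 3 was the highest pool of the series and F3 control 1 the lowest. Star rose in F3 with an adjusted p of 0.0535, Cyp17a1 with 0.0481 and Scarb1 with 0.0361 by edgeR. Cyp11a1, the enzyme that opens the pathway, had a smaller difference of 0.63 and overlapped in both generations, at 734 to 1268 CPM in F3 *thia* and 577 to 821 CPM in F3 controls. Insl3, a further marker of Leydig cells, overlapped in both generations too. It read 73.3 to 217 CPM in F3 *thia*, 55.4 to 90.7 CPM in F3 controls, 144 to 160 CPM in F1 *thia* and 137 to 185 CPM in F1 controls.

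Of 33 genes of cholesterol synthesis and uptake, 18 had a positive difference at an unadjusted p under 0.05 (54.5%) and 0 a negative one. DESeq2 called 9, and 32 of the 33 lay above 0. The median change was -0.01 in F1 and 0.42 in F3, 18 genes rose in F3, and 3 showed pools apart in opposite directions (1.07% of all genes did). In F1, 7 of the 33 had all *thia* pools below the controls (8.29% of all genes) and 0 had them above (6.64%). Hmgcs1, a synthase of the early steps of the pathway, read 463, 425 and 506 CPM in F1 controls, 340, 400 and 389 CPM in F1 *thia*, 298, 372 and 408 CPM in F3 controls and 475, 494 and 553 CPM in F3 *thia*. The difference of Hmgcs1 was 0.80 (SE 0.17, adjusted p of 0.248 by edgeR and 0.00759 by DESeq2). Hsd17b7, an enzyme of both cholesterol and estrogen synthesis, differed by 0.90 (SE 0.20), at 53.3 to 60.3, 39.9 to 52.7, 36.0 to 48.2 and 57.8 to 77.8 CPM in F1 control, F1 *thia*, F3 control and F3 *thia*. Dhcr7, which makes cholesterol in the last step of a branch of the pathway, differed by 1.05 (SE 0.29).

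Leaving out any 1 pool kept the median difference of the steroidogenic genes and that of the cholesterol genes positive, within 0.44 to 0.75 and 0.33 to 0.51 over all 23 alternatives. The lowest value of both came without F3 *thia* 3, the pool with the highest summed level of either group (10260 CPM against 3480 to 7864 CPM in the other F3 pools for the steroidogenic genes). With the trend with gene length removed the medians were 0.61 and 0.38.

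Inha, the shared subunit of inhibins, had a difference of 0.74 (95% interval 0.07 to 1.41) and did not pass by either tool (0.318 by edgeR, 0.163 by DESeq2). It rose in F3 by 0.89, with 426, 337 and 573 CPM in *thia* against 184, 295 and 242 CPM in controls. Inhba, the beta A subunit of activin and inhibin, differed by 0.95 (SE 0.22, adjusted p of 0.0131 by DESeq2), with 53.8, 52.1 and 62.4 CPM in F3 *thia*, 23.8 to 29.2 CPM in F3 controls, and overlapping levels of 30.3 to 43.7 and 31.1 to 43.5 CPM in F1. Over the 29 Sertoli cell genes the median change was 0.16 in F1 and 0.39 in F3, 4 rose in F3, and the median difference was 0.24. Of these, 1 had a positive and 0 a negative difference at an unadjusted p under 0.05, and 12 were positive without F3 *thia* 2.

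Endothelial genes showed the same order of effects. Of 25, 11 had a positive difference at an unadjusted p under 0.05 (44%) and 1 a negative one, DESeq2 called 6, and 13 rose in F3. The medians were 0.07 in F1, 0.56 in F3 and 0.49 (0.37 to 0.65 over the alternatives) for the difference. Cdh5, the cadherin of endothelial junctions, read 28.0, 36.1 and 36.8 CPM in F3 controls and 72.4, 62.4 and 87.4 CPM in F3 *thia*, with 68.1 to 86.6 and 66.1 to 105 CPM in F1 controls and *thia*. Cdh5 thus rose in F3 by 1.14 (adjusted p of 0.0256 by edgeR) to 62.4 to 87.4 CPM, close to the F1 range, and its difference was 0.95 (SE 0.26). Pecam1, another junction protein of vessels, read 20.7 to 27.6 CPM in F3 controls and 31.3 to 44.9 CPM in F3 *thia*. Pecam1 stayed below the 50.7 to 61.1 CPM of all F1 pools. Kdr, also an endothelial marker, overlapped in F3, at 72.6 to 77.8 CPM in controls and 76.3 to 98.0 CPM in *thia*. In F1 Kdr read 52.7 to 69.1 CPM in controls and 69.3 to 74.4 CPM in *thia*.

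Signals between mesenchymal and vascular cells held smaller shifts. Of 70 axon guidance genes, which encode semaphorins, plexins, ephrins and their receptors, 16 had a positive difference at an unadjusted p under 0.05 (22.9%) and 0 a negative one, and DESeq2 called 7. Their median difference was 0.23, and it fell to 0.14 with the length trend removed and to 0.15 without F3 *thia* 3. Sema4d, a transmembrane semaphorin, was opposite by its pools, at 16.3 to 20.5 CPM in F1 controls, 13.5 to 16.2 CPM in F1 *thia*, 3.85 to 5.52 CPM in F3 controls and 5.70 to 9.41 CPM in F3 *thia*, with a difference of 0.99 (SE 0.26). Robo1, a Slit receptor, rose in F3 by 0.87 (adjusted p of 0.0422 by edgeR), from 14.9, 25.1 and 20.2 CPM to 37.3, 26.1 and 46.1 CPM.

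Among 21 interstitial progenitor genes 6 had a positive difference at an unadjusted p under 0.05 (28.6%) and 0 a negative one. By DESeq2 2 passed, among them Ptch1. Ptch1, a Hedgehog receptor that is also a transcriptional target of that pathway, read 130 to 147 CPM in F1 controls, 119 to 138 CPM in F1 *thia*, 80.5 to 99.5 CPM in F3 controls and 119 to 157 CPM in F3 *thia*. The difference of Ptch1 was 0.75 (SE 0.16, adjusted p of 0.0085 by DESeq2), and 0.48 with the length trend removed. Gli1, a transcription factor and target of the pathway, had a difference of 0.54 (SE 0.19, adjusted p of 0.13 by DESeq2). The group's median of 0.33 fell to 0.17 with the length trend removed.

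A pair of genes of contractile cells rose in F3. Myh11, the smooth muscle myosin heavy chain, read 27.9, 37.9 and 38.4 CPM in F3 controls, 69.5, 58.1 and 65.1 CPM in F3 *thia* and 45.1 to 54.8 CPM in all F1 pools. Its difference was 0.94 (95% interval 0.57 to 1.31, adjusted p of 0.248 by edgeR and 0.00133 by DESeq2). Kcnma1, the pore of a calcium-activated potassium channel, rose in F3 by 0.96 (adjusted p of 0.0218 by edgeR) with 0.07 in F1, and its difference of 0.89 fell to 0.59 with the length trend removed. The 18 smooth muscle genes were mixed, with 3 positive and 2 negative differences at an unadjusted p under 0.05 and a median of -0.08 that changed sign in 7 of 23 alternatives.

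Interferon-response genes had a median change of 0.25 in F1 and 0.40 in F3. Of 25, 7 had a positive difference at an unadjusted p under 0.05 (28%) and 0 a negative one, and 2 passed by DESeq2, Ddx58 (above) and Stat2, a transcription factor of interferon signalling, at 0.55 (SE 0.15). The median difference of 0.32 rested on a few pools: it was 0.18 without F1 control 3, 0.19 without F1 *thia* 2, 0.10 without F3 *thia* 2 and 0.01 without both *thia* 2 pools.

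The genes that lay lower with *thia* in F3 and not in F1 included those of protein synthesis, respiration and protein breakdown. Of 77 cytoplasmic ribosomal protein genes, 45 had a negative difference at an unadjusted p under 0.05 (58.4%, against 6.1% of all genes) and 0 a positive one, and DESeq2 called 23 and 0. Their median change was 0.16 in F1 and -0.23 in F3. In F1, 76 of 77 lay above 0, although 0 passed, and in F3, 73 of 77 lay below 0 and 13 fell (3.99% of all genes fell). The median difference was -0.39 and ran from -0.50 to -0.24 over the alternatives. The F1 median was 0.07 without F1 control 3 and 0.24 without F1 *thia* 2.

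Rpl9, a protein of the large subunit, read 1323, 1278 and 1130 CPM in F1 controls, 1572, 1183 and 1472 CPM in F1 *thia*, 3867, 3389 and 3300 CPM in F3 controls and 2332, 2617 and 2232 CPM in F3 *thia*. The F3 groups did not overlap and the F1 groups did, and the difference of Rpl9 was -0.74 (SE 0.17, adjusted p of 0.0088 by DESeq2). Rps18, of the small subunit, differed by -0.90 (SE 0.23) and fell in F3 by 0.72. Rpl10a was the member with pools apart in opposite directions, at 813 to 895 CPM in F1 controls, 929 to 1017 CPM in F1 *thia*, 1566 to 1783 CPM in F3 controls and 1343 to 1503 CPM in F3 *thia*. Rpl37a, which the study used as a reference gene for RT-qPCR, had a change of 0.22 in F1 and -0.22 in F3 and a difference of -0.44 (95% interval -0.88 to 0.00) that passed by neither tool. Ribosomal protein genes have many near-identical processed copies, so the counting may have split their reads.

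Mitochondrial counterparts followed. Of 76 mitochondrial ribosomal protein genes 25 had a negative difference at an unadjusted p under 0.05 (32.9%) and 0 a positive one, 11 passed by DESeq2 and 21 fell in F3, with medians of 0.03 in F1, -0.23 in F3 and -0.26 for the difference. Next to Mrps14, Mrpl28 read 82.1, 83.0 and 67.2 CPM in F1 controls, 83.3, 80.0 and 84.0 CPM in F1 *thia*, 141, 132 and 134 CPM in F3 controls and 104, 110 and 104 CPM in F3 *thia*. Of 84 respiratory chain genes 26 were negative (31%) and 0 positive, and 7 passed by DESeq2. Ndufb8, a subunit of complex I, fell in F3 by 0.70 (adjusted p of 0.0477 by edgeR), from 435, 379 and 368 CPM to 209, 277 and 243 CPM, with overlapping F1 pools of 119 to 198 CPM. Of 47 proteasome genes 14 were negative (29.8%) and 0 positive, 7 passed by DESeq2 and 16 fell in F3, with a median of -0.00 in F1 and -0.24 in F3. Psmd13, of the regulatory particle, differed by -0.64 (SE 0.16).

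Of 66 translation factor genes 15 were negative (22.7%) and 5 positive. The negative ones were led by Eef1b2, an exchange factor of elongation, at -0.57 (SE 0.14), and Eif3h, a subunit of an initiation complex, at -0.66 (SE 0.17). Eif2ak3, the kinase PERK, which slows initiation under stress of the endoplasmic reticulum, lay the other way at 0.50 (SE 0.14).

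Of the 22, 5 genes were lower in F3 alone, Gcsh, Msrb2, Tyms, Ppp1r11 and Cpa3, the last of which is given below. Gcsh, the H protein of glycine cleavage, fell in F3 by 0.49 (adjusted p of 0.0218 by edgeR), from 141, 138 and 129 CPM to 99.2, 94.8 and 95.2 CPM, with 86.1 to 101 CPM in F1 controls and 99.6 to 110 CPM in F1 *thia*. Msrb2, which repairs oxidised methionine in mitochondria, had a difference of -0.74 (SE 0.16), Tyms, the thymidylate synthase, of -0.55 (SE 0.11), and Ppp1r11, an inhibitor of protein phosphatase 1, of -0.56 (SE 0.11). The first 4 fell in F3 without overlap between pools, as F3 pools were apart in 26.6% of all genes.

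**Figure D3:**
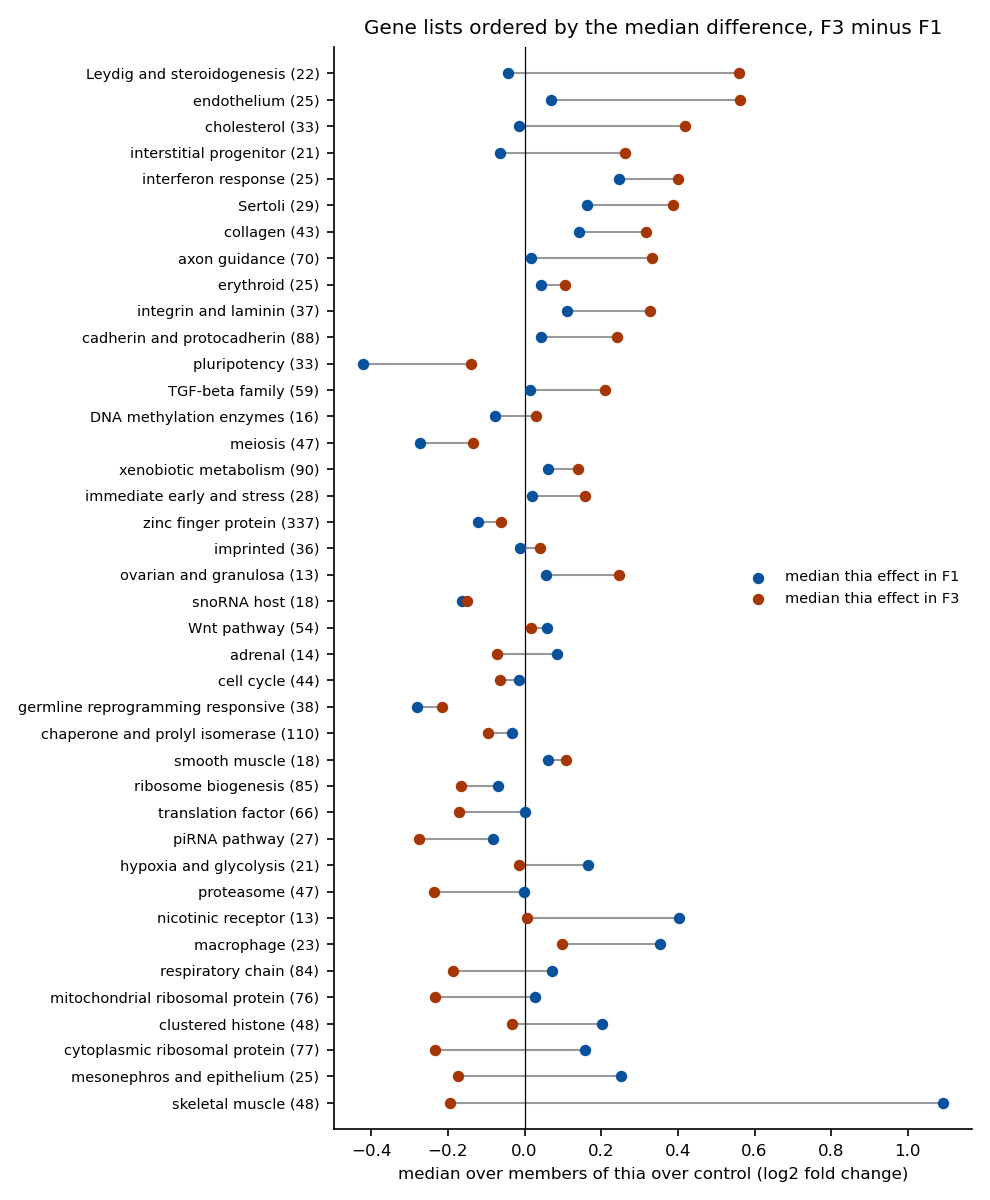
For each of 40 gene lists, with the number of members tested in brackets, the blue point gives the median log2 fold change of *thia* over control in F1 and the red point that in F3; lists are ordered by the median difference. Leydig, endothelial and cholesterol genes lay to the right in F3 (0.56, 0.56 and 0.42), ribosomal protein and respiratory chain genes to the left, and skeletal muscle genes stood at 1.09 in F1 and -0.19 in F3.

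These groups differ in gene length, and the difference moved with length over all genes. The median difference was -0.21 in genes with up to 1000 bases of exons, -0.17 from 1001 to 2000, -0.05 from 2001 to 4000, 0.08 from 4001 to 8000 and 0.22 above 8000 bases. Positive and negative differences at an unadjusted p under 0.05 numbered 681 and 36 in the 2747 longest genes, against 17 and 100 in the 1092 shortest. The level of genes over 8000 bases against genes up to 2000 bases, relative to the controls of the same generation, was 0.21 to 0.29 (log2) in the 3 F3 *thia* pools, -0.24 to -0.03 in the 3 F1 *thia* pools, and -0.12 to 0.19 in the 6 control pools.

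With this trend removed, the median difference was -0.24 for cytoplasmic ribosomal proteins, -0.16 for mitochondrial ones, -0.10 for the respiratory chain and -0.13 for the proteasome, with 26, 22, 13 and 5 genes at an unadjusted p under 0.05. Herc2, a giant ubiquitin ligase of 16175 exon bases (chr7:56050196-56231800), was the second gene by p. Its levels were 64.2, 60.9 and 62.4 CPM in F1 controls, 58.8, 56.2 and 58.8 CPM in F1 *thia*, 45.3, 48.7 and 49.9 CPM in F3 controls and 67.9, 68.6 and 68.6 CPM in F3 *thia*, without overlap in either generation. The difference of Herc2 was 0.62 (SE 0.09, adjusted p of 0.164 by edgeR and 1.45e-06 by DESeq2), and 0.33 with the length trend removed. The same setting left Gas5 at -1.38, Lhcgr at 1.46 and Hmgcs1 at 0.77. The part of length, or of RNA quality that can go with it, in these results was not tested further.

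**Figure D4:**
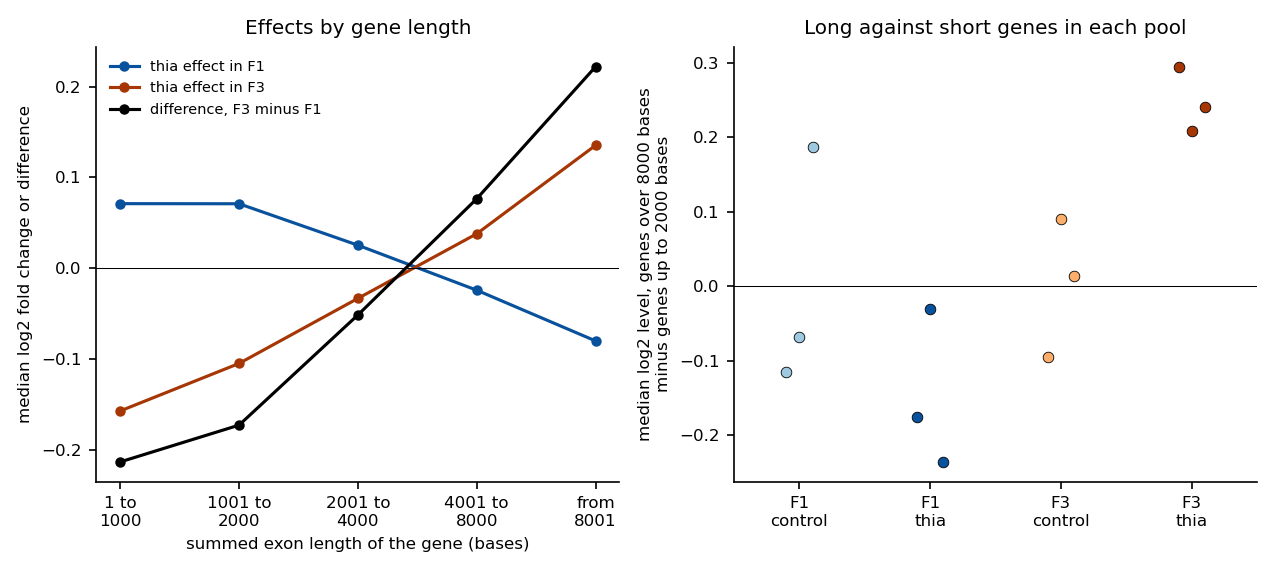
Left, the median thia effect in F1 and F3 and the median difference (log2) for genes in 5 classes of summed exon length, in which the difference runs from -0.21 in the shortest to 0.22 in the longest class. Right, the median log2 level of genes over 8000 bases minus that of genes up to 2000 bases in each of the 12 pools, relative to the controls of the same generation, with the F3 *thia* pools at 0.21 to 0.29.

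The remaining genes among the 22, other than Cpa3, had 4700 to 10573 exon bases and were higher in F3 alone. Lrrc8b, a subunit of volume-regulated anion channels, differed by 0.73 (SE 0.13), Aff1, a scaffold of the super elongation complex, by 0.66 (SE 0.13), Lmtk2, a membrane-anchored kinase, by 0.81 (SE 0.17), Abhd2, a lipid hydrolase, by 0.75 (SE 0.16), and Lrp3, a member of the low-density lipoprotein receptor family, by 0.66 (SE 0.14). In Abhd2 the 3 other groups coincided, at 27.2 to 35.3 CPM, and the F3 *thia* pools read 47.1, 56.6 and 56.9 CPM. In Lmtk2 the controls themselves were apart, at 23.7 to 24.8 CPM in F1 and 10.9 to 12.9 CPM in F3, with 16.6 to 22.1 CPM in F3 *thia*. Cpa3, a carboxypeptidase of mast cell granules, had the largest fall of the 22: 10.6, 9.28 and 16.4 CPM in F3 controls and 4.18, 4.26 and 3.01 CPM in F3 *thia*, against 0.93 to 2.53 CPM in all F1 pools. The difference of Cpa3 was -2.06 (95% interval -3.0 to -1.12, adjusted p of 0.248 by edgeR and 0.00223 by DESeq2).

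In many of these genes the F3 control pools, and not the *thia* pools, were the group that stood apart. Of the 22 genes, the F3 controls were the group farthest from the mean of the other 3 in 15, F3 *thia* in 6 (Lrrc8b, Ddx58, Prlr, Lhcgr, Abhd2 and Hmgcs1) and the F1 controls in 1 (Gas5). Among the 724 genes of DESeq2 the F3 controls were farthest in 547 (75.6%) and F3 *thia* in 118 (16.3%), against 34.1% and 24.9% of all genes. The median size of the log2 shift from F1 to F3 was 0.59 between controls and 0.22 between *thia* pools in these 724 genes, and 0.32 and 0.24 over all genes. Since the difference is built from these 4 levels, the counts describe the genes and test nothing. In the 22 Leydig and steroidogenesis genes the median shift was -0.36 between controls and 0.33 between *thia* pools. The genes of the study among them moved more in the *thia* pools: Cyp17a1 shifted by -0.07 between controls and 1.08 between *thia* pools, Scarb1 by -0.21 and 1.07, and Star by -0.45 and 0.95.

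Among the lists with a larger median change in F1 than in F3, skeletal muscle genes had the largest, 1.09 against -0.19 in F3, and 14 of 48 had a negative difference at an unadjusted p under 0.05 (29.2%) with 1 passing by DESeq2. Without F1 *thia* 2 the median difference of -1.08 shrank to -0.26. Des, the muscle intermediate filament desmin, read 29.6, 26.9 and 24.2 CPM in F1 controls and 39.5, 69.8 and 33.8 CPM in F1 *thia*, and Myom2, a sarcomere protein, 2.48 to 3.56 CPM and 5.43, 23.7 and 5.04 CPM. Testis has no skeletal muscle of its own, and where these reads came from was not tested. Of 25 genes of mesonephros and epithelium, the tissue beside the fetal gonad, 10 were negative (40%) and 0 positive, with medians of 0.25 in F1 and -0.17 in F3. By DESeq2, 1 of them passed. Pax8, a transcription factor of the urogenital tract, read 6.81 to 8.24 CPM in F1 controls, 8.55 to 9.29 CPM in F1 *thia*, 8.36 to 13.2 CPM in F3 controls and 7.0 to 7.66 CPM in F3 *thia*. Pax2, another marker of this tissue, lay higher with *thia* in both generations without overlap. In F1 controls and *thia* it read 1.483 to 1.625 and 2.02 to 2.24 CPM, and in F3 1.06 to 1.40 and 1.55 to 1.90 CPM. Epcam, a further marker, overlapped in both generations.

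Few germ cell genes had a difference at an unadjusted p under 0.05. Of 33 pluripotency genes 2 had a positive (6.06%) and 1 a negative (3.03%) difference at an unadjusted p under 0.05. Over all genes these shares were 7.93% and 6.1%. The counts of this list also moved with single pools: 6 positive and 1 negative without F3 *thia* 2, and 3 and 5 without F3 *thia* 1. Without both *thia* 2 pools they were 8 and 1. The medians of the pluripotency genes were -0.42 in F1 and -0.14 in F3. In 16 of the 33 the F1 *thia* pools all lay below the F1 controls (8.29% of all genes), and in 1 the F3 *thia* pools lay below theirs (13.5% of all genes). Tfcp2l1, a transcription factor of naive pluripotency, was lower with *thia* in F1 without overlap, at 10.2, 13.2 and 11.8 against 8.60, 8.43 and 7.25 CPM, and read 7.55 to 8.19 CPM in F3 controls and 8.05 to 9.62 CPM in F3 *thia*. Its difference was 0.70 (SE 0.19, adjusted p of 0.0342 by DESeq2). Nanog, a core pluripotency factor read at 0.99 to 2.63 CPM, had a change of -0.75 in F1 and of 0.16 in F3, and a difference of 0.91 (SE 0.31). Dppa3, which protects the maternal genome from demethylation and marks early germ cells, had negative changes in both generations, -1.70 and -1.34, and its difference of 0.37 (95% interval -0.86 to 1.59) was not told from 0. Dppa3 read 64.6, 76.8 and 76.7 CPM in F1 controls, 26.8, 25.1 and 15.3 CPM in F1 *thia*, 39.8, 29.6 and 17.4 CPM in F3 controls and 17.5, 4.06 and 12.6 CPM in F3 *thia*. Of 47 meiosis genes 1 was positive and 0 negative, with 12 apart and lower in F1 and 4 in F3, and 5 were positive without F1 control 1 or without F3 control 1. Of 27 genes of the piRNA pathway 0 were positive and 0 negative, but 10 were negative without F3 *thia* 1. Of 38 genes that respond to germline reprogramming 2 were positive and 1 negative, against 4 and 6 without F3 *thia* 1 and 8 and 0 without F3 control 1.

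Among 16 genes of DNA methylation and demethylation, the dioxygenases Tet3 (0.69, SE 0.20) and Tet1 (0.67, SE 0.24) and the maintenance methyltransferase Dnmt1 (0.40, SE 0.16) had a positive difference at an unadjusted p under 0.05, Tet3 passed by DESeq2 (adjusted p of 0.0576) and 0 were negative. These were 3 of 16 (18.8%, against 7.93% of all genes), and 1 of 16 with the length trend removed. Tet3 read 46.3 to 55.9 CPM in F1 controls, 42.2 to 48.5 CPM in F1 *thia*, 23.7 to 29.7 CPM in F3 controls and 33.3 to 49.6 CPM in F3 *thia*. Dkk1, a secreted Wnt antagonist, fell in F3 by 1.34 (adjusted p of 0.0361 by edgeR) with -0.33 in F1, and its difference of -1.02 (95% interval -1.87 to -0.17) passed by neither tool.

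The nicotinic receptors showed 0 positive and 2 negative differences at an unadjusted p under 0.05 among 13 genes (Chrnb3, -1.11, and Chrna9, -1.67), neither of which passed. All 13 lay above 0 in F1 and 7 of 13 in F3, with medians of 0.40 and 0.01, and 0 passed in F1. The nicotinic receptor genes were read at low levels, with a sum over all 13 of 24.03 to 36.97 CPM in a pool. DESeq2 adjusted only 4 of the 13 for the difference. At such levels the sign of a single gene is imprecise. Macrophage genes showed 0 and 0 of 23, and 0 and 7 without both *thia* 2 pools. Of these, 22 lay above 0 in F1 and 15 in F3, with medians of 0.35 and 0.10. Among 25 erythroid genes, whose summed level was 86230 CPM in F3 *thia* 2 and 46370 and 50720 CPM in the other F3 *thia* pools, the median difference was 0.23 and became -0.67 without F3 *thia* 2. The 3 negative ones were the embryonic globins Hbb-y, Hbb-bh1 and Hba-x, and of these Hbb-y read 330, 117 and 354 CPM in F3 controls, 42.1, 50.7 and 45.5 CPM in F3 *thia*, and 33.9 to 344 CPM with overlap in F1. The difference of Hbb-y was -3.01 (SE 0.86, adjusted p of 0.0757 by DESeq2).

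**Figure D5:**
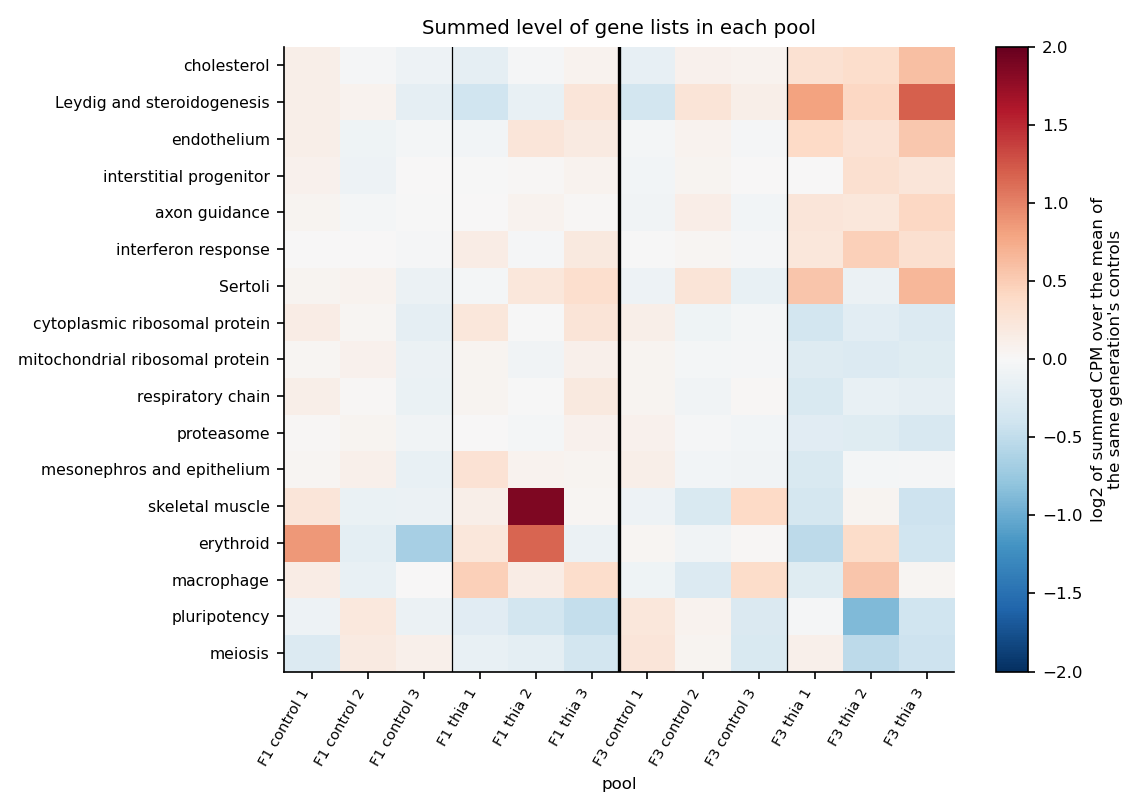
Each cell gives the log2 of the summed CPM of a gene list in 1 pool over the mean of the controls of the same generation, red for higher and blue for lower, with pools as columns and 17 lists as rows. Steroidogenic, cholesterol and endothelial genes were higher in all 3 F3 *thia* pools (0.41 to 1.19, 0.31 to 0.60 and 0.29 to 0.54), the 4 lists of ribosomal, respiratory and proteasome genes were lower in them, and skeletal muscle reached 1.86 in F1 *thia* 2 alone.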

How the data were processed

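Total RNA of 12 pools of E15.5 testes was made into strand-specific libraries. Reads were aligned by the authors with HISAT2 2.1.0 (build mm10) and assigned to genes with featureCounts. Each deposited file holds the raw counts of 1 library for 35976 gene symbols, not normalized. The annotation was the refGene table of UCSC for mm10; whether counting used strand is not given in the sources used here. The submitters' notes also name bcl2fastq 2.20.0.422 and DESeq2 2.11.40.7. Coordinates and exon lengths came from GENCODE M21 (GRCm38), by symbol for 26763 genes and through RefSeq synonyms for 500, and 92.8% of the genes tested had a length.

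Counts were fitted in R 4.3.3 with edgeR 4.0.16 (filterByExpr at a minimum count of 10, TMM, quasi-likelihood test, Benjamini-Hochberg adjustment over all genes tested), with 4 group means and no covariate. The FDR was 0.1 for the difference and for F3 and 0.15 for F1, as in the study's thresholds. CPM were TMM-scaled, and means are given with the SD over 3 pools. The standard error came from the F statistic of the test, and levels were compared across groups as log2 of CPM plus 0.1. A gene's class used unadjusted p-values under 0.05 of both effects. With 3 pools against 3, an exact permutation test cannot go below 0.1, so single genes were tested only in the fit across genes. The fit was tested on simulated data. Figures were drawn with Python 3.11.15.

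The gene lists were written by hand for the tissue, its other cell types, the functions in the study and the targets of the compound. The comparison, the lists and the genes were chosen with earlier results of these data known. The rule named called genes by class and list. As fewer than 22 genes were called, it named the 22 with the smallest p, at a mean of at least 1 CPM and without a provisional symbol, and the study's Inha, Dkk1, Cyp17a1, Scarb1, Star, Rpl37a, Gas5 and Dppa3. Other genes are members of a list with a small p or opposite genes of DESeq2, and were chosen after their values were seen. No list was tested as a set. Single values of some list members are not reported here.

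Alternatives included DESeq2 with its Wald test, version 1.42.0, limma-voom with quality weights (limma 3.58.1), bias-adjusted deviances, scaling by upper quartiles or by DESeq2 size factors, a filter of 10 counts in each library or none, an FDR of 0.05, a replicate block, loess removal of the length trend (span 0.3), both together, leaving out each library, and leaving out both *thia* 2 pools. DESeq2 without each library and the fit of 1 generation alone were added after seeing the data.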

Additional observations from a re-analysis of the deposited data

Results flagged for a closer look

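Gas5 was singled out because the change from control to *thia* differed between the 2 generations by a test of that difference. Its log2 difference, F3 minus F1, was -1.39, with the *thia* pools above the controls in all 3 F1 pools and below them in all 3 F3 pools.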

How the results depend on the processing

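For the difference, limma-voom called 1 gene, as did edgeR with bias-adjusted deviances, scaling by DESeq2 size factors or upper quartiles, with no filter or one of 10 counts in each library, the length trend removed, an FDR of 0.05, or without both *thia* 2 pools. EdgeR called 0 with a replicate block and with the block and the length trend removed, and 0 to 4 without single libraries. Genes at an unadjusted p under 0.05 numbered 1818 to 3155 without single libraries, and 2107 with the length trend removed. DESeq2 called 724 genes, 838, 384 and 377 without F1 control 1, 2 or 3, 223, 849 and 184 without F1 *thia* 1, 2 or 3, 78, 836 and 580 without F3 control 1, 2 or 3, 779, 1257 and 101 without F3 *thia* 1, 2 or 3, and 1362 without both *thia* 2 pools, and 1816 genes stood at an unadjusted p under 0.05 by DESeq2 without F3 control 1. The F1 count of 0 became 92 by DESeq2, 1 with no filter, 2 with the 6 F1 libraries alone and 0 to 2 without single libraries. The F3 count of 1936 became 2983 by DESeq2, 752 with the replicate block, 500 with the block and the length trend removed, 595 at an FDR of 0.05, 0 with the 6 F3 libraries alone and 0 to 2371 without single libraries. Deviations of same-numbered control and *thia* pools from their group means correlated at -0.16, -0.11 and 0.03 in F1 and 0.30, -0.55 and -0.34 in F3. Those of differently numbered F3 pools ran from -0.53 to 0.62. Deviations within so few pools constrain each other, so whether pools shared a litter or batch cannot be read from these values. Dppa3 had -0.040 without F3 *thia* 1, 0.75 without F3 *thia* 2 and 0.84 without both *thia* 2 pools. Of 667 further values of named genes under the alternatives, 633 kept their direction and their side of the threshold, 26 passed it anew, 7 fell short of it, all of Gas5, and 1 was that of Dppa3. Only Gas5 passed in the main fit, so for every other named gene the same side means not passing. Gas5 itself passed in 16 of 23 alternatives. Of 920 list medians, 871 stayed within the spread between pools. Genes with few reads are imprecise at 3 pools a group. Unless the setting itself shows it (fewer samples), the cause was not tested.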

Other observations

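Of 337 zinc finger protein genes of the Zfp series, 24 had a positive difference at an unadjusted p under 0.05 (7.12%, near the 7.93% of all genes). A negative one was found in 2 (0.59%, against 6.1% of all genes), and the median changes were -0.12 in F1 and -0.06 in F3. These counts rested on the setting: 11 positive and 12 negative under upper quartile scaling, and 30 and 11 by limma-voom. With the length trend removed they were 16 and 8. Of 37 integrin and laminin genes, which tie cells to their matrix, 8 were positive (21.6%) and 1 negative (2.7%). Their median difference of 0.21 fell to 0.09 with the length trend removed. Of 43 collagen genes 5 were positive (11.6%) and 0 negative, with a median difference of 0.24, and 12 rose in F3. Of 88 cadherin and protocadherin genes 4 were positive (4.55%) and 1 negative (1.14%). Of 59 genes of the TGF-beta family, Inhba and Bmpr2 among them, 6 were positive (10.2%) and 2 negative (3.39%). Of 54 Wnt pathway genes 6 were positive (11.1%) and 4 negative (7.41%).

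Of 85 genes of ribosome biogenesis 1 was positive and 9 were negative (10.6%), with medians of -0.07 in F1 and -0.16 in F3, and of 110 chaperone and prolyl isomerase genes 7 were positive and 17 negative. Clustered histone genes, of which 48 were tested, had 1 positive (2.08%) and 3 negative (6.25%) differences. Their median of -0.32 became -0.11 with the length trend removed. Imprinted genes (36), cell cycle genes (44) and immediate early genes (28) had median differences of 0.06, -0.02 and 0.12. Hypoxia and glycolysis genes (21) had 2 positive (9.52%) and 4 negative (19%), and xenobiotic metabolism genes (90) 5 and 5 (5.56% each). Adrenal genes (14) had 2 and 2 (14.3% each), and ovarian and granulosa genes (13) 0 and 0.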
